A study of Mus musculus with 140 samples.

Results

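The 78 genes described here are named for proteins of the mitochondrial ribosome. They were chosen by name and not by any measured value, as the autosomal protein-coding genes of the GENCODE M21 annotation (mouse build mm10) whose symbol is Mrpl or Mrps followed by a number. Of 83 gene records with such a symbol, 5 were processed pseudogenes and 78 were protein-coding, out of 20807 autosomal protein-coding genes in all. They comprised 49 large-subunit (Mrpl) and 29 small-subunit (Mrps) genes on 17 chromosomes. The split goes by symbol, and in mammals the products of Mrps30 and Mrps18a are found in the large subunit. Each gene was given a territory, the gene body extended by 10 kb at both ends, and any interval overlapping it by at least 1 bp was counted for that gene.

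The study mapped silencers, which are stretches of DNA that reduce transcription, by Ss-STARR-seq. Random pieces of the genome are inserted into a reporter plasmid, the pool of plasmids is put into cells, and the RNA made from the reporter is sequenced alongside the pool. The labels describe 140 libraries, of which 56 hold the reporter RNA of mESCs (pluripotent mouse embryonic stem cells, grown in N2B27-2i/LIF medium) in 3 output sets, 64 hold that of MEFs (mouse embryonic fibroblasts, grown in DMEM with FBS) in 4 output sets, and 20 hold the input plasmid library, which is named with both lists. The labels also name iCD1 medium for inducing MEFs, without saying whether it was used for these libraries, and they give no strain, sex or passage.

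The data were 2 lists of silencer intervals, 1 for mESCs and 1 for MEFs, each interval with a fold. The mESC list held 115165 intervals and the MEF list 89596. No value per library was analysed, so no difference between the cell types has a replicate check, and the depth behind an interval is unknown. The lists hold no RNA levels, so the cell types could not be checked against markers. A fragment was measured on a plasmid, outside its chromosomal place, and an interval was assigned to a gene by position alone. The authors' fold describes and ranks intervals within 1 list here, since the sources used here do not say what it divides by what or how the lists were scaled.

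Mitochondria keep a small genome whose messages encode core subunits of the respiratory chain, and these messages are read by ribosomes of their own. The ribosomal RNAs come from the mitochondrial genome, while every ribosomal protein is encoded in the nucleus, made in the cytosol and imported. The nuclear genes are known to be expressed broadly and in concert, since both subunits are needed in balance. Their promoters are known for sites of NRF1, of the ETS factor GABP and of YY1, and many of them are of the housekeeping type.

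The intervals with the highest fold at these genes are shown first, since their values recur below, together with the promoter interval of Mrpl57. Sequences are from mm10, on the plus strand and 5′ to 3′, and capitals mark the bases that intervals of both lists cover.
Mrpl42, mESC list, chr10:95489658-95489707: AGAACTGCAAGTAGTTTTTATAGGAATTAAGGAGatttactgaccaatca
Mrps2, mESC list, chr2:28475662-28475961: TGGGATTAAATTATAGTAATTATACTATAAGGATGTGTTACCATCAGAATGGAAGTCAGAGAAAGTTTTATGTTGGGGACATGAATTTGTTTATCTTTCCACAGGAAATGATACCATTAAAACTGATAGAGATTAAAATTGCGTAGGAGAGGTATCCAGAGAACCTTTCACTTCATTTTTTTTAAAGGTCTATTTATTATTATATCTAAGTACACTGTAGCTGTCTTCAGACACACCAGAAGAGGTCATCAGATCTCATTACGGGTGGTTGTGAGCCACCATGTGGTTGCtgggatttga
Mrps18c, mESC list, chr5:100801052-100801151: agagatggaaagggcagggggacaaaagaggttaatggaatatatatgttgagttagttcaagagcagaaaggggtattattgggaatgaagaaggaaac
Mrpl40, mESC list, chr16:18875107-18875156: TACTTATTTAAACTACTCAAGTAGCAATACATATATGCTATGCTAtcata
Mrpl55, MEF list, chr11:59200904-59200996: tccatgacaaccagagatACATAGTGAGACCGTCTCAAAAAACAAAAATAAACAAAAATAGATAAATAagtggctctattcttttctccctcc
Mrpl57, mESC list, chr14:57825402-57825501: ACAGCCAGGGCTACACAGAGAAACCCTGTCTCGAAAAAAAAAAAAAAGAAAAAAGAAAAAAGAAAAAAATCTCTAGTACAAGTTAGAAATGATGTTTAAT
The Mrpl40 interval has a MEF counterpart shifted by 5 bp, and the Mrps2 interval one shifted by 10 bp. At Mrps18c no base is in capitals because the MEF list held no interval in that territory.

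The 6 mESC intervals shown next lie side by side in an intron of Mrpl18 and carry much of its count. Capitals again mark the bases that the MEF list also covers, all from a single MEF interval.
Mrpl18, mESC list, chr17:12914148-12914197: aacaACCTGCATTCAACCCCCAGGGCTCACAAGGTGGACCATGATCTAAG
Mrpl18, mESC list, chr17:12914248-12914397: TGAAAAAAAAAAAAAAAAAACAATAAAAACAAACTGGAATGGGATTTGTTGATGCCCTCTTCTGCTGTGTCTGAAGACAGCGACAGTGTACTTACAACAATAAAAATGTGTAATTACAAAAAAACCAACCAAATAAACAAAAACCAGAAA
Mrpl18, mESC list, chr17:12914464-12914613: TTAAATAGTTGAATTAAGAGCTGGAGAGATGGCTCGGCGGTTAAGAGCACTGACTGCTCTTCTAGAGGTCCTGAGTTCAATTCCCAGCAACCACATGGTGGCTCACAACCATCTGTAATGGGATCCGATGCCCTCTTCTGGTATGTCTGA
Mrpl18, mESC list, chr17:12914714-12914763: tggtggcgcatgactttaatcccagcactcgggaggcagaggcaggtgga
Mrpl18, mESC list, chr17:12914914-12915013: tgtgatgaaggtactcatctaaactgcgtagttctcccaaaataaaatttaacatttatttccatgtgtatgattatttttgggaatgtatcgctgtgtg
Mrpl18, mESC list, chr17:12915114-12915163: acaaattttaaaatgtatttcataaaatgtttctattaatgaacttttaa
No match to any of the 9 motifs searched (given below) lies in any of these sequences. The share of soft-masked repeat sequence in the Mrpl18 intervals ran from 0.0% in the first to 100.0% in the fourth. The start and end coordinates carry an uncertainty of 1 bp, because the deposited starts may count from 1.

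The 78 territories held 153 mESC and 114 MEF intervals, and no interval fell in the territories of 2 members. At least 1 mESC interval was found for 57 members (73.1%), against 77.3% of all autosomal protein-coding genes. At least 1 MEF interval was found for 52 members (66.7%), against 70.3% of all genes. Both pooled shares were close to the background, but member territories are shorter. By territory length (20 to 25, 25 to 30, 30 to 40 and 40 to 150 kb) members lay above all genes. In that order the mESC shares were 61.5%, 66.7%, 85.7% and 100%, against 55.7%, 64.4%, 73.7% and 90.3%. The MEF shares were 53.8%, 55.6%, 85.7% and 100%, against 46.9%, 53.9%, 64.4% and 85.15%. These differences were not tested. The median was 1 interval per member in each list, against 2 mESC intervals and 1 MEF interval per gene over all genes.

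The counts were uneven. Of the 267 intervals of both lists, 84 (31.5%) belonged to 6 members and 169 (63.3%) to 20 members, while 12 members had a single interval and 15 had none. The 6 members with at least 10 intervals were 7.69% of the 78, against 16.9% of all genes. More mESC than MEF intervals were counted for 35 members, or 44.9%, against 46.8% of all genes. Fewer mESC than MEF intervals were counted for 14 members (17.9%), against 20.4% of all genes, and 14 members had equal counts above 0.

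**Figure D1:**
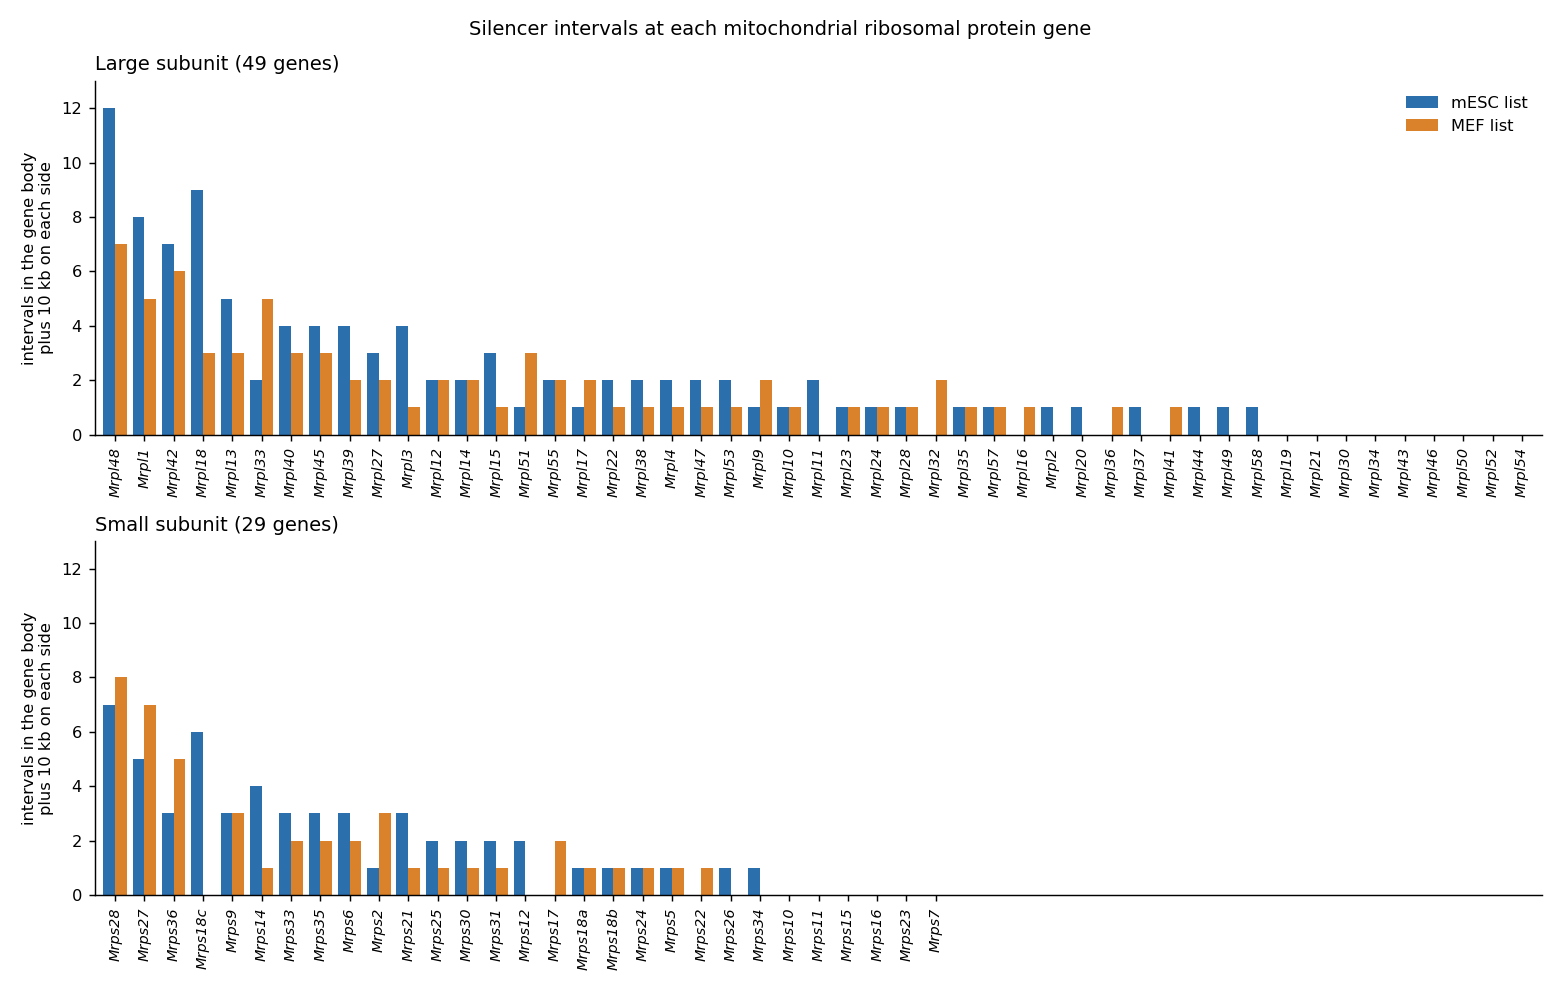
Number of silencer intervals in the territory of each of the 78 genes (y axis), with mESC bars left of MEF bars and genes sorted by the sum of both lists within the large and small subunit. The highest bars are the 12 mESC intervals of Mrpl48 and the 8 MEF intervals of Mrps28, and 9 large-subunit and 6 small-subunit genes have no bar.

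The territories of the members were short, with a median of 27.9 kb against 37.6 kb over all genes, so counts were also read per length. Per Mb of territory the members held 57.7 mESC intervals, against 49.9 for all genes. The MEF list gave 43.0 per Mb for the members, against 38.1 for all genes. The large-subunit genes held 64.3 mESC and 45.9 MEF intervals per Mb, and the small-subunit genes 48.8 and 39.0. The 73 cytosolic ribosomal protein genes, whose products build the ribosome of the cytosol, held 52.5 mESC and 39.1 MEF intervals per Mb. These densities were not tested against each other.

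The 6 members with the most intervals carried part of this density. Without them the other 72 members held 47.9 mESC and 35.6 MEF intervals per Mb, and the 17296 genes that likewise had fewer than 10 intervals held 40.6 and 30.0 per Mb. This cut goes by the counts themselves and took out 7.69% of members and 16.9% of all genes. The densities of the 72 members lay below the 49.9 and 38.1 per Mb of all genes without the cut. By length, the 26 members with territories of 20 to 25 kb held 52.5 mESC intervals per Mb, against 42.8 for all genes of that length. Mrpl18 gave 9 of their 32 mESC intervals, and without it the class does not lie above all genes in the mESC list. In the MEF list the class held 41.0 intervals per Mb, against 32.2, and Mrpl18 gave 3 of the 25. Mrpl18 was left out of the members alone, while the class of all genes kept its densest genes. The 11 members of 40 to 150 kb held 72.8 mESC and 60.4 MEF intervals per Mb, against 54.6 and 41.0 for all genes of that length. Those 11 held 59 mESC and 49 MEF intervals, of which Mrpl48 gave 12 and 7 and Mrps28 gave 7 and 8. Mrpl1 gave 8 and 5, Mrpl42 gave 7 and 6 and Mrps27 gave 5 and 7. The excess of that class thus rests largely on genes with the highest counts. Between 25 and 40 kb the MEF densities of the members, 32.0 and 33.2 per Mb in the 2 classes, lay below the 33.1 and 36.0 per Mb of all genes. The mESC densities of the same 2 classes, 50.6 and 49.8 per Mb, lay above the 45.5 and 49.0 of all genes.

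**Figure D2:**
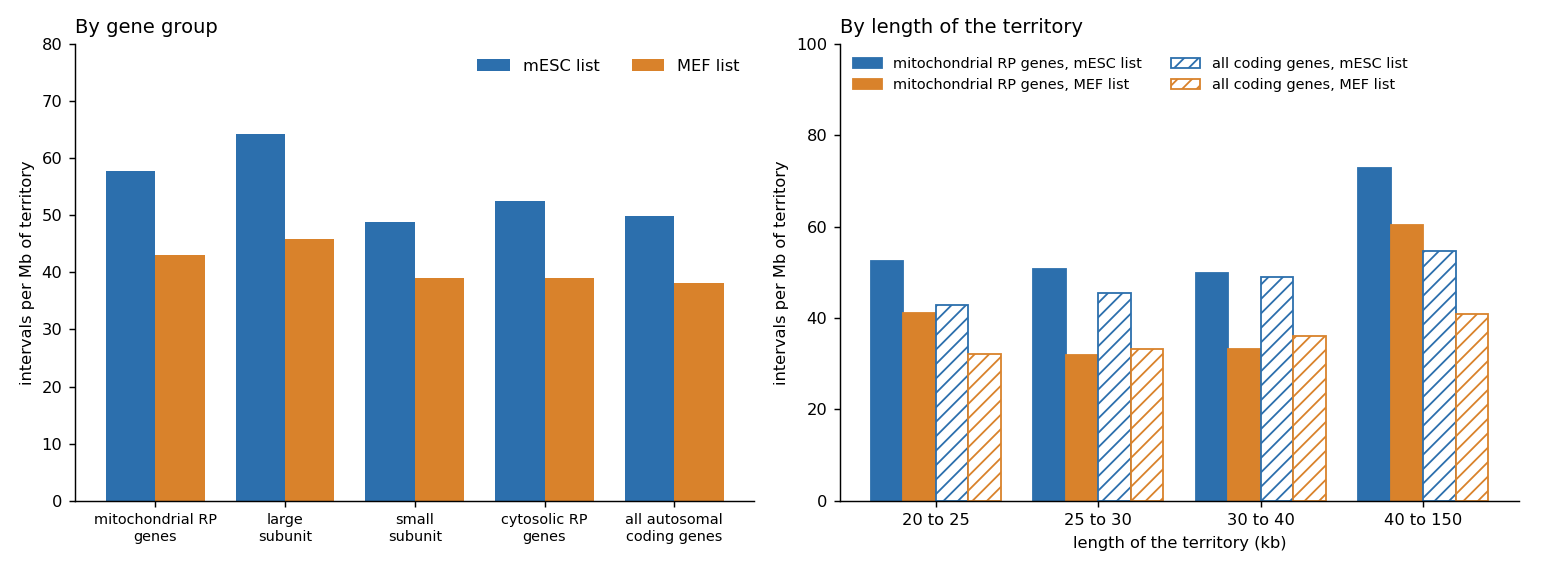
Left, intervals per Mb of territory in the mESC list (blue) and the MEF list (orange) for the mitochondrial ribosomal protein (RP) genes, their 2 subunits, the cytosolic RP genes and all autosomal protein-coding genes. Right, the same density by length of the territory (kb), for the mitochondrial RP genes (filled) and all coding genes (hatched). The gaps are widest in the class of 40 to 150 kb. There the values are 72.8 against 54.6 mESC and 60.4 against 41.0 MEF intervals per Mb. That class includes Mrpl48, Mrps28, Mrpl1, Mrpl42 and Mrps27, which are among the genes with the most intervals.

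Among the large-subunit genes, Mrpl48 (ENSMUSG00000030706.17, chr7:100545751-100608301, minus strand) held the most intervals of all members, with 12 in the mESC list and 7 in the MEF list. Its product lies in the central protuberance of the large subunit. Of these intervals 11 and 6 touched the gene body, and 4 of each list overlapped one another. Their folds had a median of 2.17 and a highest value of 2.65 in the mESC list, where the median of the list was 2.41, and a median of 2.42 and a highest value of 3.53 in the MEF list, where it was 2.36.

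Mrpl42 (ENSMUSG00000062981.5, chr10:95480805-95501940, minus strand), which encodes a subunit with no bacterial counterpart, held 7 mESC and 6 MEF intervals in a territory of 41.1 kb. At 316 intervals of both lists per Mb it was denser than 99.3% of all genes. It also held the interval with the highest fold of all members, 21.7 in the mESC list over 50 bp in an intron, 12.2 kb from the gene's start. The MEF interval that overlaps it by 34 bp had a fold of 3.23. The other 6 mESC intervals of Mrpl42 ran from 2.01 to 3.24, so that single interval stands apart within its territory. The depth behind its fold is unknown.

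Mrpl1 (ENSMUSG00000029486.13, chr5:96209493-96266727, plus strand), the counterpart of the bacterial protein of the L1 stalk, held 8 mESC and 5 MEF intervals. All 5 MEF intervals lay in the distal part of the gene, between 28.5 and 43.9 kb from the nearest start. The mESC intervals were spread over the gene, with midpoints from 0.232 to 65.6 kb past the nearest start, and 3 of them overlapped MEF intervals.

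Mrpl18 (ENSMUSG00000057388.9, chr17:12911349-12916345, minus strand), the counterpart of a bacterial protein that binds ribosomal RNA, held 9 mESC and 3 MEF intervals in a short territory. Its 480 intervals of both lists per Mb ranked 6 of 20807 genes, the highest place of any member. That rank rests on the run of 6 mESC intervals shown above, which spans 1016 bp with gaps of at most 200 bp and folds of 2.36 to 5.42. The MEF list had 1 interval of 550 bp at the same place, with a fold of 4.17, and it overlapped 3 of the 6. With neighbours within 200 bp merged, Mrpl18 held 4 mESC and 3 MEF intervals and ranked 198. The MEF interval covered the 3 pieces farther into the gene, and the 3 pieces nearer to its start had no MEF counterpart.

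Tcp1, the neighbour of Mrpl18, encodes a chaperonin subunit of the cytosol and held 10 mESC and 5 MEF intervals in its own territory, of which 9 and 3 are those counted for Mrpl18. One overlapping pair of that territory lay in Pnldc1, which encodes an RNA-trimming nuclease, with folds of 4.90 in the mESC list and 3.48 in the MEF list.

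Mrpl40, named in humans as a gene of the DiGeorge syndrome region, held 4 mESC and 3 MEF intervals at 282 per Mb, more than 98.6% of all genes. A 50 bp pair in its intron had folds of 5.81 in the mESC list and 6.81 in the MEF list, 1.41 kb from the start in both. The rest of its intervals had folds of 2.10 to 3.04. Mrpl55 had a similar pair upstream, at -1.54 kb from its start by the midpoint, with 5.42 in the mESC list and 7.15 in the MEF list, the highest MEF fold of all members, in sequence that is wholly soft-masked as repeat.

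Mrpl45, whose product docks the ribosome to the inner membrane, held 4 mESC and 3 MEF intervals, and its highest mESC fold of 5.42 belonged to an interval of 300 bp that the MEF list did not overlap. Mrpl13 held 5 and 3, with a highest MEF fold of 4.70 in an intron. Mrpl27, the counterpart of a bacterial protein near the peptidyl transferase centre, held 3 and 2, and 1 interval of 500 bp, listed identically for both cell types, had folds of 2.14 and 2.10. Mrpl3, the counterpart of another protein near that centre, held 4 mESC intervals and 1 MEF interval, none of them shared. Mrpl12, whose product forms the stalk and in human cells also binds the mitochondrial RNA polymerase, held 2 and 2, all within Hgs, an endosomal sorting gene.

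The excess ran the other way at Mrpl33 (2 mESC and 5 MEF intervals), Mrpl32 (0 and 2) and Mrpl51 (1 and 3). Mrpl32 encodes a protein whose maturation by a mitochondrial protease is known as a step of ribosome assembly. The MEF interval in its coding exon, with a fold of 3.09, was 1 of 2 member intervals centred in a coding exon of their own gene. The other was at Mrpl39, and both were in the MEF list. At Mrpl16 the only interval was in the MEF list, with a fold of 4.70, inside the neighbouring gene Stx3.

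Among the small-subunit genes, Mrps28 (ENSMUSG00000040269.5, chr3:8802146-8923918, minus strand) held 7 mESC and 8 MEF intervals, but over 142 kb, which is 106 per Mb and denser than 67.0% of all genes. Its folds stayed between 2.01 and 2.90 in both lists. Mrps27 (ENSMUSG00000041632.7, chr13:99344786-99415562, plus strand), an RNA-binding protein of the pentatricopeptide repeat family, held 5 mESC and 7 MEF intervals with 3 of each overlapping. A 50 bp mESC interval there had a fold of 4.17, and its other intervals of both lists lay between 2.02 and 2.82.

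Mrps18c (ENSMUSG00000016833.14, chr5:100798627-100804471, plus strand) held 6 mESC intervals and 0 MEF intervals. Their folds were 2.12, 2.20, 2.21, 3.06, 3.14 and 7.05, the last over 100 bp in an intron 2.36 kb from the start, and the nearest MEF interval lay 24.7 kb from a start. Both of its paralogues had 1 interval in each list. Those of Mrps18a overlapped, with folds of 2.08 in the mESC list and 2.23 in the MEF list, while those of Mrps18b did not, with folds of 2.61 and 2.22. With 6 intervals Mrps18c was below the minimum of 10 for a test.

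Mrps36, whose product has since been assigned to the alpha-ketoglutarate dehydrogenase complex, held 3 mESC and 5 MEF intervals at 279 per Mb, more than 98.5% of all genes. Both lists marked the same 2 places in its intron, 1 with folds of 3.45 in the mESC list and 4.01 in the MEF list and 1 with 2.15 and 2.12. Mrps2, the counterpart of bacterial S2, held 1 mESC interval with a fold of 11.6 and 3 MEF intervals with folds of 2.08, 2.88 and 5.45. The mESC interval and the MEF interval of highest fold were the same place, 7.75 kb past the start and outside coding genes. Mrps17 held 2 MEF intervals of 5.45 and 2.13, both inside Sept14, and none in mESCs.

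Mrps14 held 4 mESC intervals and 1 MEF interval. Mrps12, the counterpart of the bacterial protein at the decoding centre, held 2 mESC intervals, both in its neighbour Fbxo17, and none in MEFs. Mrps5 had 1 interval in each list, at different places, and Mrps34, mutated in a human Leigh syndrome, had 1 mESC interval in its neighbour Spsb3.

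**Figure D3:**
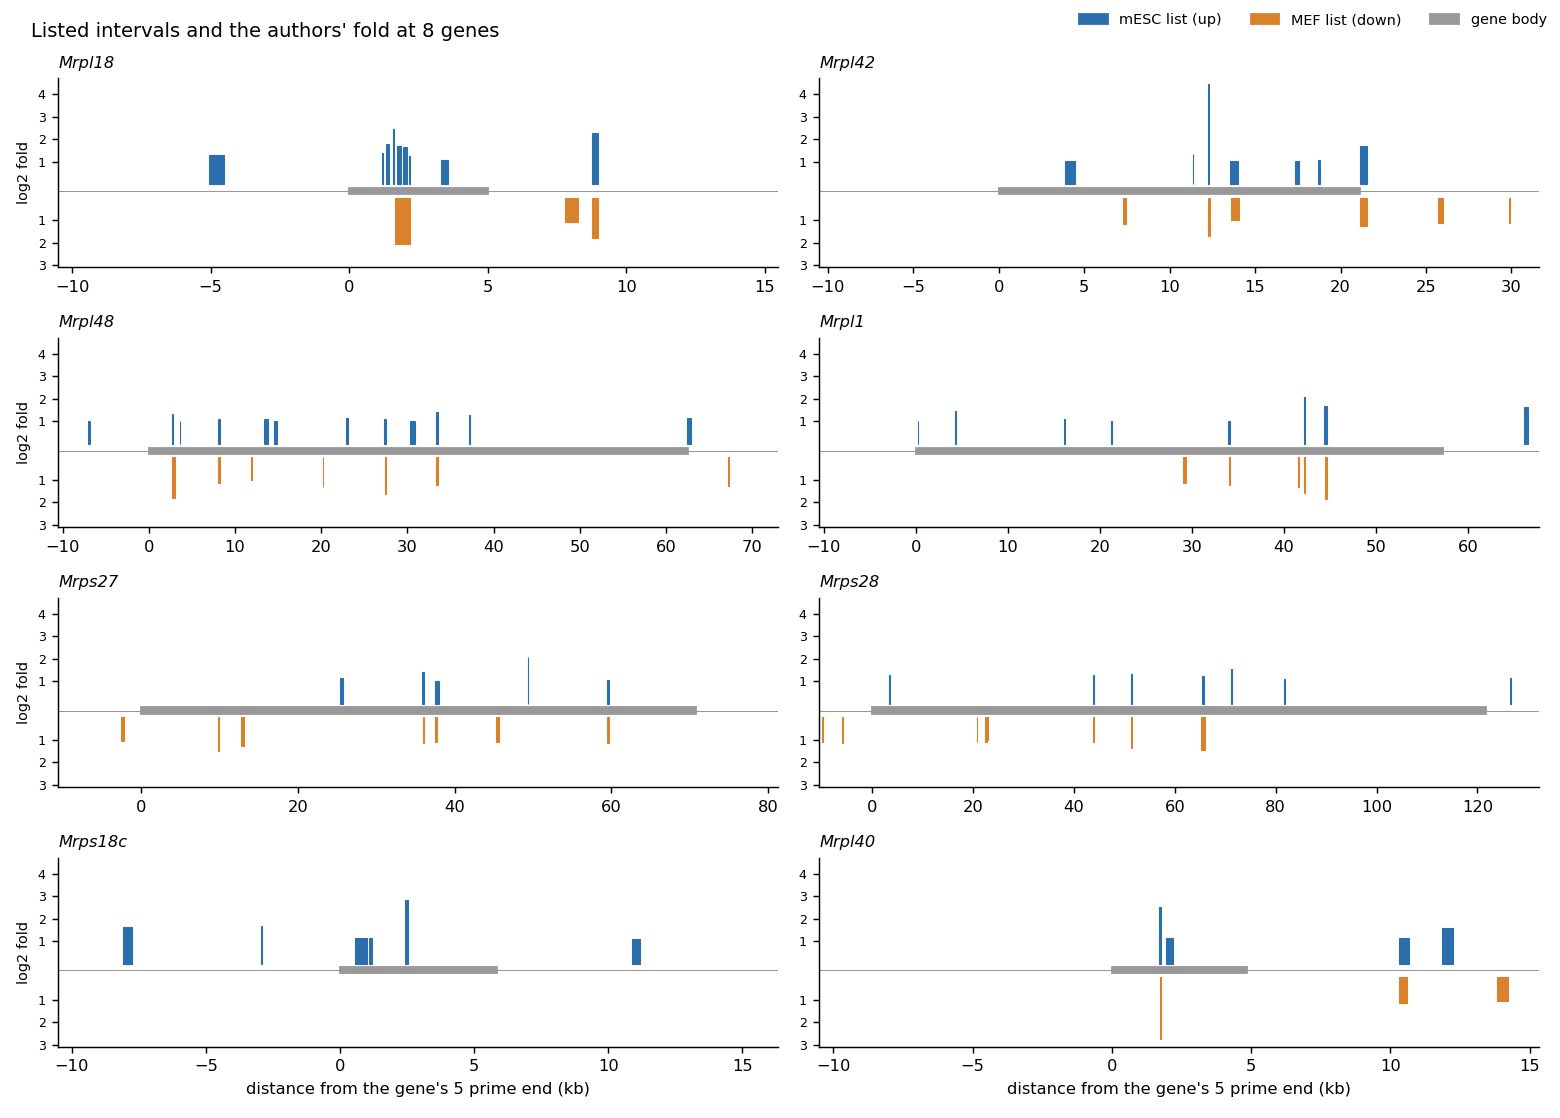
Listed intervals at 8 genes by distance from the 5′ end of the gene record (x axis, kb, in the direction of transcription). The mESC intervals point up and the MEF intervals down from the gene body in grey, with bar height giving log2 of the authors' fold and a thin outline keeping short intervals visible; the tallest bar is the mESC interval of Mrpl42 (fold 21.7), and Mrps18c has mESC bars alone.

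No interval of either list was found for 15 members (19.2%), against 16.2% of all genes. The 9 large-subunit genes among them were Mrpl19, Mrpl21, Mrpl30, Mrpl34, Mrpl43, Mrpl46, Mrpl50, Mrpl52 and Mrpl54. The 6 small-subunit genes were Mrps7, Mrps10, Mrps11, Mrps15, Mrps16 and Mrps23. Mrps7, Mrps10, Mrps11, Mrps15 and Mrps16 are named for bacterial counterparts of the small subunit. Mrpl46 and Mrps11 are neighbours on chromosome 7, with the nearest mESC interval 83.0 kb from the start of Mrps11 and 82.9 kb from that of Mrpl46. These were the 2 longest mESC distances of the 15. The nearest MEF interval lay 29.4 kb from both starts, while the longest MEF distances were 71.9 kb at Mrpl21 and 67.6 kb at Mrps23. Mrps15 and Mrps7 were the closest to a count, with mESC intervals 10.1 and 10.3 kb from their starts. Another 11 members had mESC intervals alone (14.1%, against 13.6% of all genes), 6 had MEF intervals alone (7.69%, against 6.50%) and 46 had both (59.0%, against 63.7%).

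At the promoter, taken as 1 kb on each side of any annotated transcription start, 8 members had an mESC interval (10.3%), against 8.03% of all genes. A MEF interval lay there in 6 members (7.69%), against 6.05% of all genes. Both shares were near the background. The mESC promoter intervals were at Mrpl1, Mrpl24, Mrpl35, Mrpl44, Mrpl57, Mrpl58, Mrps14 and Mrps18c, and the MEF ones at Mrpl9, Mrpl24, Mrpl27, Mrpl57, Mrps2 and Mrps33.

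Of these folds the largest were 3.37 at Mrpl44, whose product has a ribonuclease-like fold, and 3.23 at Mrpl35 in the mESC list, and 3.50 at Mrpl9 in the MEF list. Mrpl58, known as a hydrolase that rescues stalled mitochondrial ribosomes, had a fold of 2.09 in the mESC list. Only Mrpl24 and Mrpl57 had overlapping promoter intervals of both lists. Mrpl24 had folds of 2.63 in the mESC list and 2.05 in the MEF list, and Mrpl57 2.21 and 2.54. The Mrpl57 sequence printed above is 88.0% repeat, with a run of A bases, and lies at -0.782 kb from the start.

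The intervals nearest to an annotated start were mESC ones at 0.207 kb in Mrpl1 and 0.291 kb in Mrpl58 and a MEF one at 0.274 kb in Mrpl9. RefSeq promoter windows, from 250 bases before to 50 after a start, were matched for 69 member symbols (75 windows), and 0 of these 75 windows overlapped an interval of either list. Over all 31396 windows of the same length 0.860% overlapped an mESC interval and 0.669% a MEF interval. At those rates fewer than 1 window of 75 would be counted, so the 0 says little.

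A start shared with a neighbour was common. In 18 of 78 members (23.1%) another coding gene started on the opposite strand within 1 kb upstream, against 6.97% of all genes. Examples are Mrpl54 with Apba3 at 26 bp, Mrps18c with Helq at 29 bp, Mrpl57 with Ska3 at 49 bp, Mrpl49 with Fau at 59 bp and Mrps12 with Sars2, the mitochondrial seryl-tRNA synthetase gene, at 172 bp. Of these 18, Mrps18c and Mrpl57 had a promoter interval. Head-to-head genes that overlap at their starts, such as Mrps11 and Mrpl46, are not among the 18. Another coding gene lay within the territory of 66 members (84.6%), against 66.2% of all genes, so many intervals counted here belong equally to a neighbour.

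By the midpoint of the interval, 70 of 153 mESC intervals (45.8%) and 44 of 114 MEF intervals (38.6%) lay in introns of the member itself, which made up 32.6% of the territories. Per Mb of that intron sequence the members held 80.9 mESC and 50.8 MEF intervals, against 51.4 and 39.7 for all genes. The 6 members with the most intervals held much of it. Among genes with fewer than 10 intervals, the intron density was 54.8 mESC and 31.0 MEF intervals per Mb for members, against 38.4 and 28.4 for all such genes. Both of these groups are picked by their own counts, so the gap is no test of intron density.

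Bodies of other coding genes filled 29.2% of the members' territories, against 8.75% over all genes, and held 37.4 mESC and 36.1 MEF intervals per Mb for members, against 46.4 and 34.5 for all genes. Sequence outside coding genes held 63.2 mESC and 45.0 MEF intervals per Mb at members, against 53.9 and 40.3. Outside the promoter, 3 mESC and 4 MEF intervals of the members were centred in exons of their own gene. Coding exons made up 1.44% of the members' territories and other exons 3.352%. Per Mb, coding exons held 0 mESC and 52.38 MEF intervals at members, against 20.98 and 16.08 for all genes. The MEF value rests on 2 intervals. Other exons held 33.74 mESC and 22.49 MEF intervals per Mb, against 45.12 and 36.04. These counts are too small to show whether exons hold few or many.

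**Figure D4:**
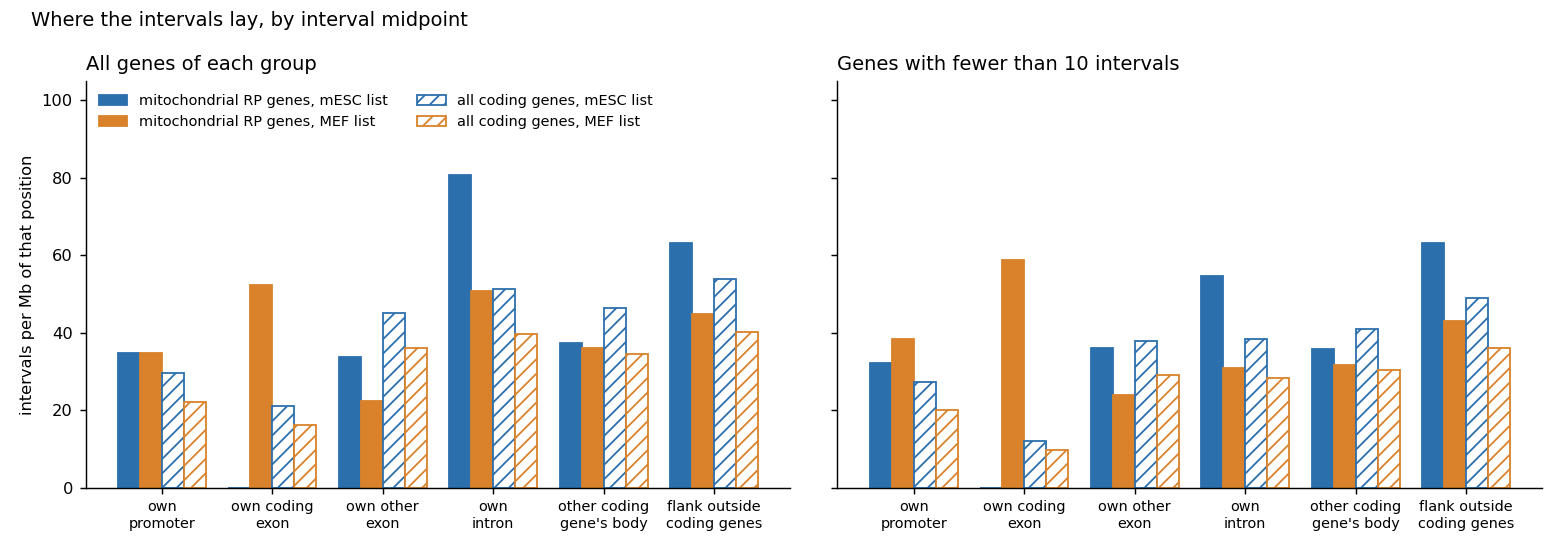
Intervals per Mb by position of the interval's midpoint, for the mitochondrial RP genes (filled) and all coding genes (hatched) in the mESC list (blue) and the MEF list (orange). The left panel has all genes and the right panel the genes with fewer than 10 intervals; own introns of the members reach 80.9 mESC intervals per Mb on the left and 54.8 on the right, and the coding exon bar of the members stands for 2 MEF intervals.

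Intervals of the lists were called shared where they overlapped by at least 1 bp. At the members 54 of 153 mESC intervals were shared, or 35.3% (exact 95% binomial interval 27.7 to 43.4%), against 36.1% over all genes. Of the MEF intervals 51 of 114 were shared, or 44.7% (35.4 to 54.3%), against 47.5% over all genes. At least 1 shared interval was found for 35 members (44.9%), against 51.4% of all genes. These intervals cover counting error only. The members' shares lay near those of all genes.

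The shared intervals formed 54 overlapping pairs at 35 members, 3 of them with the same start and end. Within these pairs the authors' folds had medians of 2.44 in the mESC list and 2.41 in the MEF list. The rank correlation of the folds over the 54 pairs was 0.630, given as a description, since both lists come from the same input library, neither holds a fold under 2, and some pairs share an interval. The pairs at Mrpl42 (21.7 in the mESC list and 3.23 in the MEF list) and Mrps2 (11.6 in the mESC list and 5.45 in the MEF list) had the highest mESC folds. Those at Mrpl55 (5.42 in the mESC list and 7.15 in the MEF list) and Mrpl40 (5.81 in the mESC list and 6.81 in the MEF list) had the highest MEF folds. At Mrpl40, Mrpl55 and Mrps2 a place that ranked high in one list ranked high in the other too.

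**Figure D5:**
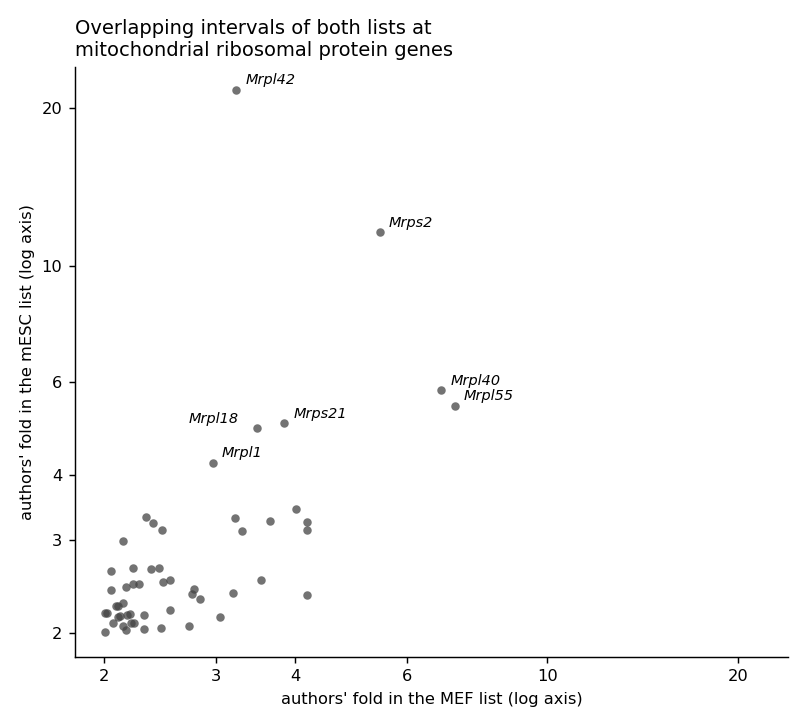
Authors' fold in the mESC list (y axis) and in the MEF list (x axis), both on log axes, for the 54 pairs of overlapping intervals at mitochondrial ribosomal protein genes; each point is a pair. Most points lie near 2 to 3 on both axes, and Mrpl42, Mrps2, Mrpl40 and Mrpl55 stand away from the rest.

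Over all member intervals the median fold was 2.32 in the mESC list and 2.27 in the MEF list, against 2.41 and 2.36 over all autosomal intervals of each list. A fold above 4 was listed for 11 of 153 mESC intervals (7.19%), against 7.78% of that list. In the MEF list it was 8 of 114 (7.02%), against 5.72%. At the members, shared intervals had higher medians than the others, 2.44 against 2.25 in the mESC list and 2.39 against 2.23 in the MEF list. No such medians over the whole lists are set beside these, so they are not read as particular to the members. The median length was 245 bp in the mESC list and 250 bp in the MEF list, against 200 bp in each whole list.

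In sequence the member intervals had 40.3% ± 7.5 GC in the mESC list (SD, n = 153) and 41.5% ± 6.65 in the MEF list (SD, n = 114), against 40.3% and 40.1% over the whole lists. The territories themselves had 45.6% GC. Soft-masked repeats made up 48.5% of the mESC intervals and 43.4% of the MEF intervals at members on average, against 40.8% and 38.4% over the lists and 26.9% of the members' territories. Both lists thus picked out sequence with less GC and more repeat than the territories as a whole.

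Consensus motifs were searched on both strands with no mismatch, and shares are given with no test. They were NRF1, ETS (CCGGAAG), YY1 (AAGATGG), SP/KLF (GGGCGG), CRE (TGACGTCA), E-box (CACGTG), ERR (TCAAGGTCA), AP-1 (TGANTCA) and BCL6/STAT (TTCNNNGAA). In the RefSeq promoter windows of members, ETS was present in 34.7%, against 9.00% of all windows. NRF1 was present in 17.3% against 4.68%, YY1 in 17.3% against 6.38% and SP/KLF in 52.0% against 36.0%. E-box was present in 9.33% against 7.14% and CRE in 2.67% against 1.83%. Lower in members were AP-1, in 4.0% against 7.845%, BCL6/STAT, in 8.0% against 8.35%, and ERR, in 0.0% against 0.417%.

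Of the 153 mESC intervals at members, 0 held NRF1, against 0.0301% of the list, and 0 held ETS, against 0.407%. Of the 114 MEF intervals 0 held NRF1, against 0.0319%, and 4 held ETS (3.51%, exact 95% interval 0.964 to 8.74%), against 0.418%. YY1 was in 7.19% of mESC and 4.39% of MEF intervals at members, against 5.97% and 5.76% of the lists. SP/KLF was in 5.88% and 2.63%, against 2.25% and 1.90% of the lists, and AP-1 in 9.15% and 7.02%, against 6.15% and 6.77%. E-box was in 0.6536% and 1.754%, against 1.91% and 2.201%. BCL6/STAT was in 5.882% and 6.14%, against 6.521% and 6.828%. CRE was in 0.0% of both, against 0.08151% and 0.1059%. ERR was in 0.0% and 0.8772%, against 0.3907% and 0.4123%. Member intervals had the longer median length. In fixed windows of 300 bp AP-1 was in 9.15% and 10.53%, against 8.177% and 9.267%. SP/KLF was there in 5.882% and 2.632%, against 2.847% and 2.575%. A match is a run of letters and not a bound site.

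The balance between the lists was compared gene by gene. The members' intervals were 57.3% mESC (153 of 267, exact 95% binomial interval 51.1 to 63.3%), against 56.7% over all territories. A two-sided exact binomial test of each gene's mESC share against that overall share, with Benjamini-Hochberg adjustment, was run on every gene with at least 10 intervals. A shared interval counts in both lists, which the test does not take into account. Of 3511 genes tested 0 passed toward mESCs (0.0%) and 0 toward MEFs (0.0%), with 26 at an unadjusted p under 0.05.

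Of the members 6 were tested and all had an adjusted p of 1.0 in that exact test. The mESC share was 75.0% at Mrpl18 (95% interval 42.8 to 94.5%), 63.2% at Mrpl48 (38.4 to 83.7%), 61.5% at Mrpl1 (31.6 to 86.1%), 53.8% at Mrpl42 (25.1 to 80.8%), 46.7% at Mrps28 (21.3 to 73.4%) and 41.7% at Mrps27 (15.2 to 72.3%). All 6 intervals include the overall share, and they overlap one another. The smallest unadjusted p among them was 0.252, at Mrpl18. No difference between the cell types was detectable at these 6 members with these counts, and the other 72 had too few intervals to be tested. After adjustment over 3511 genes, none of the 6 could have passed toward mESCs, even with every interval in that list. Mrpl18, Mrps27, Mrpl1 and Mrpl42 could have passed in neither direction. The test therefore cannot tell whether the cell types differ at these genes.

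Around the ribosome itself, 77 other genes of mitochondrial translation and mtDNA transcription, listed by function, held 258 mESC and 224 MEF intervals, or 65.0 and 56.4 per Mb. None of the 13 tested passed the exact binomial test in either direction. The 5 other subunit genes with a record held 13 and 12, and Ptcd3 (6 and 4) and Chchd1 (4 and 3) led them. The 26 genes of ribosome assembly held 57 and 66, led by Mettl15, a methyltransferase of the small-subunit rRNA (9 and 8). Fastkd2, a protein of large-subunit assembly, and Noa1, a GTPase of mitoribosome assembly, followed with 5 and 5 each.

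The 18 translation factor genes held 63 mESC and 50 MEF intervals, led by the elongation factor gene Gfm1 (7 and 6) and, with 11 intervals each, by Lrpprc, which stabilises mitochondrial messages (8 and 3), and Mrrf, the ribosome recycling factor gene (3 and 8). The 17 mitochondrial aminoacyl-tRNA synthetase genes held 99 and 72, of which 40 and 32 were at Fars2 with its territory of 629 kb, followed by Wars2 (7 and 9). The 11 genes of mtDNA transcription and copying held 26 and 24, led by Tfb2m, a mitochondrial transcription factor (6 and 5), and Polg2, the accessory subunit of the mitochondrial DNA polymerase (4 and 5). In the cytosolic set Rps9 (5 and 4) led, followed by Rpl13 (3 and 3), Rps3a1 (3 and 3), Rpl23 (2 and 4) and Rpl4 (4 and 2) with 6 intervals each.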

How the data were processed

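Reporter RNA and the input plasmid library were sequenced in 140 libraries, and the 2 deposited interval lists, 1 for mESCs and 1 for MEFs, were analysed. Per the file headers each interval carries a fold, a linear ratio that the authors deposited. Bowtie2 and SAMtools are named without versions in the submitters' processing notes. The notes give hg38 as build and the series' design text gives mm10. Since 0 intervals of either list ended past an mm10 chromosome, mm10 was used. The sources used here do not give the caller, the libraries divided in the fold, any scaling for depth or the pooling of libraries. Every listed fold was above 2, with lowest values of 2.00 in each list.

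From the lists, intervals were counted in the territory of every autosomal protein-coding gene of GENCODE M21 (body plus 10 kb on each side), and promoters were 1 kb on each side of any annotated start. Position classes used the interval's midpoint, with the order promoter, coding exon, other exon, intron, other gene, flank. Sequence and soft-masking came from GRCm38.p6, and promoter windows from RefSeq. The per-gene test was a two-sided exact binomial test, adjusted over all genes with at least 10 intervals at a threshold of 0.05. It was also run on simulated counts. Those were drawn independently, with no interval shared between the lists, so they do not check the test for the shared intervals here. Intervals of shares are exact (Clopper-Pearson, 95%) and cover counting error only. Counting used Python 3.11.15, numpy 2.4.6, pandas 2.3.3, scipy 1.17.1, statsmodels 0.14.6 and pysam 0.24.0.

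The genes, lists and motifs were chosen with earlier results of these data known. Named genes are those with at least 10 intervals, the 10 densest per Mb, the 5 with the largest excess toward each list, those with a promoter interval or with none at all, those with the 5 highest folds of each list, 10 genes of known role, and the 2 leading genes of each pathway list. Mrpl15, Mrpl17, Mrpl28, Mrpl39, Mrpl49 and Mrps30 were named outside that rule, after their values were seen. Of 79 pathway genes listed, 77 matched an autosomal protein-coding record.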

Additional observations from a re-analysis of the deposited data

How the results depend on the processing

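No paired analysis was possible because each cell type has 1 interval list and no values per library. The shares of members with an interval, the densities, the shared shares, the mESC share, the promoter shares and the per-gene test were recomputed with other territories, promoters, members or interval sets. Fold medians, the correlation over pairs, GC and repeat content and the pathway lists were not. Of the recomputed results, 68 of 94 alternative values moved by less than their exact 95% binomial interval or, for counts and densities, by less than 1.5 times. The main values are those given above.

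The share of members with an mESC interval was 57.7% with 5 kb flanks, 33.3% in gene bodies alone and 91.0% with 25 kb flanks. It was 50% for intervals at or above the list's median fold, 50% for intervals under 50% repeat, 52.6% outside other coding genes, and 91.7% at the 12 members with no other coding gene nearby. Over all genes the same settings in that order gave 67.2%, 51.8%, 90.6%, 58.0%, 61.3%, 68.7% and 78.0%. For a MEF interval they gave 50%, 29.5%, 85.9%, 38.5%, 44.9%, 46.2% and 83.3% of members, against 60.0%, 46.5%, 85.7%, 50.98%, 55.4%, 62.1% and 72.6% of all genes. Intervals at or above the median fold numbered 25.3 per Mb in the mESC list and 18.9 in the MEF list, and those under 50% repeat 30.5 and 24.9, against 23.9 and 18.4, and 31.4 and 24.99, over all genes; these settings leave out intervals by construction. Among intervals under 50% repeat, 25.9% of mESC and 31.8% of MEF ones were shared, against 32.4% and 40.8% over all genes, and 26.8% of mESC ones, against 29.0%, were shared when an overlap of 50% of both intervals was asked for.

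An mESC promoter interval was found at 3.85% of members within 500 bp, 35.9% within 5 kb and 3.85% at or above the median fold, against 3.46%, 38.8% and 3.80% of all genes. A MEF one was found at 1.28% within 500 bp and 30.8% within 5 kb, against 2.56% and 31.5%.

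Merging intervals within 200 bp and leaving out the 6 members with the most intervals were chosen after seeing the data. They gave 52.8 and 47.9 mESC intervals per Mb, and 40.7 and 35.6 MEF intervals per Mb. Merged intervals of all genes numbered 47.1 mESC and 36.2 MEF per Mb, and genes with fewer than 10 intervals are set beside the remaining members above. Leaving out Mrpl18 gave 54.8 mESC and 42.3 MEF intervals per Mb. The per-gene test called 0 genes under each of its 5 alternatives, and with a minimum of 5 intervals Mrps18c had an unadjusted p of 0.0398 and an adjusted p of 1.0 in the exact test. The lists hold no read counts, so the depth behind each fold is unknown, and with 1 list per cell type a difference between cell types cannot be told apart from a difference between the lists.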

Other observations

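The authors' folds took few values. The mESC list held 3594 distinct folds over 115165 intervals and the MEF list 3077 over 89596. The most frequent fold, 2.71 in the mESC list and 2.72 in the MEF list, was listed for 4086 and 3051 intervals, 3.55% and 3.41% of each list. At the mitochondrial ribosomal protein genes 4 mESC and 3 MEF intervals carried that value, among them intervals of Mrpl15 and Mrpl28 in the mESC list and of Mrpl17 and Mrps30 in the MEF list. The 153 mESC intervals had 127 distinct folds and the 114 MEF intervals 96, and 20 and 14 of them took 1 of the 10 most frequent values of their list. The fold of 5.42 at Mrpl18, Mrpl45 and Mrpl55 in the mESC list and that of 5.45 at Mrps2 and Mrps17 in the MEF list are each such a repeated value. Divided by 1.35 in the mESC list and 1.36 in the MEF list, which is the most frequent fold over 2, 82.5% and 81.7% of all folds were ratios of whole numbers with a denominator of at most 50, within a relative tolerance of 1e-06. At these genes it was 124 of 153 mESC intervals (81.0%) and 91 of 114 MEF intervals (79.8%). With that divisor times the square root of 2 the shares over all folds were 0.189% in the mESC list and 0.144% in the MEF list. Such a divisor makes low shares certain in advance, so these values are no control. The fold of 21.7 at Mrpl42 is a whole multiple of the mESC divisor of 1.35. The counts behind the folds are not given in the lists.

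Intervals of 50 bp, the shortest at these genes, numbered 23 of the 153 mESC and 16 of the 114 MEF intervals at these genes, and they include the mESC intervals of highest fold at Mrpl42 and Mrpl40.

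Neighbouring intervals of a list within 200 bp formed 9 runs in the mESC list and 6 in the MEF list at these genes. The largest was that of 6 at Mrpl18, and the others held 2 intervals each. At Mrps36, Mrpl13 and Mrpl55 both lists held a run.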
